A study of Mus musculus with 6 samples.

Results

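Described here are 34 genes of cholesterol and fatty acid synthesis, measured in isolated pancreatic islets of hIAPP-Tg and wild-type mice on Affymetrix arrays. They were taken from a list of gene symbols: 17 sterol synthesis enzymes, 6 genes that control the pathway or carry its product, and 11 enzymes that make, elongate or desaturate fatty acids. All 34 were found, on 79 of the 45037 probe sets tested, as probe sets annotated to exactly 1 of these symbols. That is 34 of the 18193 genes named on the array. Where a gene had several probe sets, the brightest over all 6 arrays stands for it unless stated otherwise.

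There were 3 hIAPP-Tg islet samples (replicates 4 to 6) and 3 wild-type ones (replicates 1 to 3), with 1 array for each mouse. The hIAPP-Tg mice carry the gene of human islet amyloid polypeptide, a beta-cell hormone that forms amyloid, and the strain is given as FVB/N-Tg(Ins2-IAPP)RFHSoel/J, which places it under an insulin promoter. Wild-type samples bear the same strain name, so only the genotype label and the title tell them apart. All mice were 12 weeks old per the labels, with 10 to 12 weeks in the design text, and ate standard chow ad libitum. Sex and the hour of islet isolation are not among the details known here. Values are log2 RMA values rounded to 0.1, differences are hIAPP-Tg minus wild type, and errors after ± are SDs over 3 mice. Calls use limma over all 45037 probe sets with Benjamini-Hochberg adjustment, and a p stated as unadjusted comes from the same fit.

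Cells build cholesterol from acetyl-CoA through mevalonate, farnesyl pyrophosphate, squalene and lanosterol, and they build palmitate from the same acetyl-CoA through malonyl-CoA. Both arms are switched on by the SREBP transcription factors, which the sterol sensor SCAP escorts out of the endoplasmic reticulum when membrane cholesterol is low and which the INSIG proteins hold back when it is high. In beta cells, cholesterol shapes the membranes of secretory granules and ion channel domains, and fatty acid desaturation sets the balance between saturated and unsaturated lipids.

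As a check on the tissue, the hormone genes stood near the top of the scale in both genotypes: Ins2 at 15.1 on every array, and Gcg at a mean of 14.8 in hIAPP-Tg and 14.77 in wild-type islets. The acinar markers, genes of the exocrine pancreas, were also bright, and the mean over the 15 measured ran from 9.43 to 11.92 on hIAPP-Tg and from 10.76 to 12.48 on wild-type arrays. Macrophage markers were higher in hIAPP-Tg islets, with a mean over 18 genes of 8.16 to 8.32 against 7.09 to 7.24. In whole islets, a change in the number of cells of a type and a change of RNA per cell cannot be told apart. Over all probe sets, 13 passed an adjusted p of 0.05, which is 0.0289%. They cover 8 of the named genes by their brightest probe set (0.044%), none of them a member here.

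None of the 34 genes passed the limma test over all probe sets, and the smallest adjusted p among them was 0.449. At an unadjusted p under 0.05, 7 of the 17 sterol enzymes were higher in hIAPP-Tg islets and 0 were lower, while 5.02% of all named genes were higher and 3.45% lower at this level. Among named genes above the array median of 5.7, where nearly all members lie, these shares were 6.56% and 3.48%. Of the 11 fatty acid enzymes 1 was higher and 2 were lower, and of the 6 regulators 0 were either. The sterol count rested in part on single arrays. Without hIAPP-Tg replicate 6 it was 2, without hIAPP-Tg replicate 5 it was 3 and without wild-type replicate 1 it was 4, where 4.62%, 5.05% and 5.4% of all named genes were higher. On all 79 probe sets of the members, 10 were higher and 3 lower at this level, against 3.82% and 3.51% of all probe sets, or 7.33% in either direction.

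**Figure D1:**
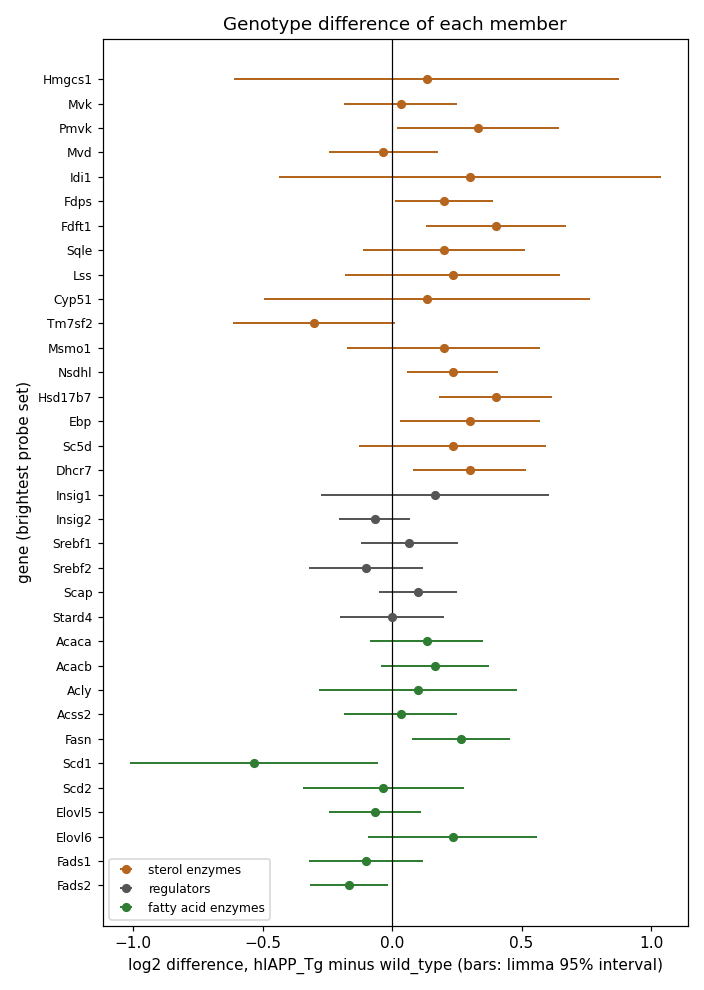
Log2 difference (hIAPP-Tg minus wild type, x axis) of each of the 34 genes by its brightest probe set, with the limma 95% interval as bars, for sterol enzymes (brown), regulators (grey) and fatty acid enzymes (green). Sterol enzymes lie mostly right of 0, at 15 of 17, while the 4 desaturases Scd1, Scd2, Fads1 and Fads2 lie left of it.

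The promoters show what these genes share in sequence, apart from their expression. RefSeq promoter windows (GRCm38.p6, 250 bases before to 50 after a start) were given for 27 of the 34 genes, and the first window stands for a gene with several. A CCAAT box, the motif read by the factor NF-Y, which acts beside SREBPs on sterol genes, was searched as CCAAT on both strands. It was found in 22 of these 27 windows (81.5%), in 13 of the 14 of sterol enzymes and in 5 of the 8 of fatty acid enzymes, against 37.4% of all 32851 windows and 38.2% of the windows of genes on the array. The core of a sterol regulatory element, searched as TCACNCCAC on both strands, was found in the Hmgcs1 window alone among the 27, against 1.24% of all windows. A GC box, GGGCGG on both strands, was found in 19 of 27, against 35.7% of all windows and 54% of those of genes on the array. Matches are letters in a window and not measured binding. An element spelled otherwise or lying outside the window would be missed, so a window without a match does not show that a gene lacks one. No window was given for Fdps, Fdft1, Sqle, Scd1, Scd2, Fads1 and Stard4. The 6 windows below belong to Hmgcs1, which holds the sterol element core, and to the members at an unadjusted p under 0.05 that have a single window. They are written 5′ to 3′ on the gene's strand, with CCAAT boxes and the sterol element core in capitals.
Hmgcs1 (chr13:119690101-119690400, plus strand): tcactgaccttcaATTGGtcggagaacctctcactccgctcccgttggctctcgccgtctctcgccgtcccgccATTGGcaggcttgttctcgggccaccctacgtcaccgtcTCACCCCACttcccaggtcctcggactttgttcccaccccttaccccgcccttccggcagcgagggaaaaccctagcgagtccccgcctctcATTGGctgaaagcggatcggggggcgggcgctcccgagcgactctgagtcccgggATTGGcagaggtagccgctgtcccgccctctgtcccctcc
Nsdhl (chrX:72918271-72918570, plus strand): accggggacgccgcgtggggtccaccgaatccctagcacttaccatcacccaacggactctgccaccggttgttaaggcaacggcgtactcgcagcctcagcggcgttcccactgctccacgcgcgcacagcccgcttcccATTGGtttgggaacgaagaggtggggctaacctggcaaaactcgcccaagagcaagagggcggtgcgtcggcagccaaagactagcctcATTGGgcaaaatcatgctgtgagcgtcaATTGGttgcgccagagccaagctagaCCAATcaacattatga
Hsd17b7 (chr1:169969156-169969455, minus strand): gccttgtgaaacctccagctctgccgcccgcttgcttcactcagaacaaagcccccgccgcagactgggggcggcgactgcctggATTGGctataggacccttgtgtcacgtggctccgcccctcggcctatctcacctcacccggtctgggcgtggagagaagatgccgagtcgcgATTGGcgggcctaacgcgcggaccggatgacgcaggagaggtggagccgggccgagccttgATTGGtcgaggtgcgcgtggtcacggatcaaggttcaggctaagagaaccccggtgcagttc
Ebp (chrX:8193463-8193762, minus strand): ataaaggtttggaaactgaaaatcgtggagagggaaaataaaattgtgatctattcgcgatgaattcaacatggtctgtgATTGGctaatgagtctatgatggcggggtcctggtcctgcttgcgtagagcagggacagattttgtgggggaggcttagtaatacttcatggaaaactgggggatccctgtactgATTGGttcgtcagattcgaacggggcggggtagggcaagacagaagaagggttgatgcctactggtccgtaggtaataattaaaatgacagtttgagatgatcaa
Fasn (chr11:120824498-120824797, minus strand): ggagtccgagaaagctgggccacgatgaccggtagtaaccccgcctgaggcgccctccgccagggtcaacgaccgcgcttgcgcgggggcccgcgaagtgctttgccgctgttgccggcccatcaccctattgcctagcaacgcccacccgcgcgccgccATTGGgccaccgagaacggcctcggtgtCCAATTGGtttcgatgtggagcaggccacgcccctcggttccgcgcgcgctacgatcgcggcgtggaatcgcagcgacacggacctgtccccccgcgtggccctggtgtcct
Fads2 (chr19:10101454-10101753, minus strand): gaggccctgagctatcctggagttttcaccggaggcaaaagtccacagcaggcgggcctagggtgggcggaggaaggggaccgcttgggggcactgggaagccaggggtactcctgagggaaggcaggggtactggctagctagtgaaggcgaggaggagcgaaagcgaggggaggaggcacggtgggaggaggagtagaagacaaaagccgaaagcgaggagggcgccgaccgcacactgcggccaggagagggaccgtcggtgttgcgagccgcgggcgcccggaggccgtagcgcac

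In these windows Hmgcs1 and Nsdhl each held 4 CCAAT matches, Hsd17b7 and Fasn 3, and Ebp 2. On Fasn, a pair of them overlaps, as 1 on each strand. The Fads2 window held 0.

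Among the 7 enzymes that lead up to squalene, Fdft1 and Fdps separated the genotypes and Pmvk did so up to a tie. Fdft1, squalene synthase, which commits farnesyl pyrophosphate to sterols, was at 9.7, 10.0 and 10.1 in hIAPP-Tg islets against 9.5, 9.5 and 9.6 in wild-type islets. All hIAPP-Tg arrays lay above all wild-type arrays, and the difference was 0.40 (1.32-fold, SE 0.11, limma adjusted p = 0.521). Fdps, which makes farnesyl pyrophosphate, was at 9.5, 9.5 and 9.6 in hIAPP-Tg and 9.2, 9.4 and 9.4 in wild-type islets, again without overlap (difference 0.20, SE 0.078, limma adjusted p = 0.620). Pmvk, phosphomevalonate kinase, was at 8.1, 8.5 and 8.5 in hIAPP-Tg and 7.9, 8.1 and 8.1 in wild-type islets. Its lowest hIAPP-Tg value tied with the highest wild-type one (difference 0.33, SE 0.13, limma adjusted p = 0.620).

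Hmgcs1, which makes HMG-CoA at the entry of the pathway, and Idi1, the isomerase of isopentenyl pyrophosphate, varied more between mice than between genotypes. Hmgcs1 was at 10.1, 10.3 and 11.2 in hIAPP-Tg and 10.1, 10.4 and 10.7 in wild-type islets. Idi1 was at 8.4, 8.9 and 9.6 in hIAPP-Tg and 8.4, 8.7 and 8.9 in wild-type islets. For both genes hIAPP-Tg replicate 6 was the highest array, and hIAPP-Tg replicate 4 and wild-type replicate 1 tied as the lowest. The differences were 0.13 for Hmgcs1 and 0.30 for Idi1, with 95% intervals of -0.61 to 0.88 and -0.44 to 1.04. Without hIAPP-Tg replicate 6 they were -0.20 and -0.017. Mvk, mevalonate kinase, differed by 0.033 and Mvd, the mevalonate pyrophosphate decarboxylase, by -0.033. Mvd, at 6.2, 6.3 and 6.4 in hIAPP-Tg and 6.2, 6.4 and 6.4 in wild-type islets, was the dimmest sterol enzyme by brightest probe set.

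Of the 10 enzymes after squalene, 9 lay above 0 and 4 of them had an unadjusted p under 0.05. Over all named genes 48% lay above 0 (53.4% of those above the array median), and 5.02% (6.56%) were higher at this level. Hsd17b7, the ketosteroid reductase that completes removal of the ring methyl groups, was at 7.3, 7.4 and 7.3 in hIAPP-Tg and 6.8, 7.1 and 6.9 in wild-type islets. It had the smallest adjusted p of all members, with no overlap of the genotypes (difference 0.40, SE 0.090, limma adjusted p = 0.449). Nsdhl, the decarboxylating dehydrogenase of the same enzyme complex, was at 8.5, 8.5 and 8.6 in hIAPP-Tg against 8.2, 8.4 and 8.3 in wild-type islets (difference 0.23, SE 0.073, limma adjusted p = 0.552). Msmo1, the methyl oxidase that works before them, was at 10.4, 10.3 and 10.8 in hIAPP-Tg and 10.1, 10.4 and 10.4 in wild-type islets and overlapped (difference 0.20, limma adjusted p = 0.780).

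Farther down the pathway, Dhcr7, the reductase of the last step to cholesterol, was at 8.0, 8.2 and 8.2 in hIAPP-Tg and 7.7, 7.9 and 7.9 in wild-type islets, without overlap. Its difference was 0.30 (1.23-fold, SE 0.090, limma adjusted p = 0.552). Ebp, the sterol isomerase, was at 9.4, 9.7 and 9.6 in hIAPP-Tg and 9.3, 9.4 and 9.1 in wild-type islets, with a tie at 9.4 (difference 0.30, SE 0.11, limma adjusted p = 0.620). The 5 sterol enzymes without overlap were thus Fdps, Fdft1, Nsdhl, Hsd17b7 and Dhcr7, all with the hIAPP-Tg arrays on top, while 4.49% of all named genes did not overlap in that direction and 3.22% in the other. Sc5d, the sterol desaturase before Dhcr7, and Lss, which closes squalene epoxide into lanosterol, each differed by 0.23. Sqle, squalene epoxidase, differed by 0.20 and Cyp51, the lanosterol demethylase, by 0.13, and all 4 overlapped. Without hIAPP-Tg replicate 6 the difference was 0.083 for Sc5d, -0.13 for Cyp51 and 0.050 for Msmo1. It was 0.12 for Lss without hIAPP-Tg replicate 5 and 0.083 for Sqle without wild-type replicate 1.

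Tm7sf2 stood against the direction of the other enzymes after squalene. It encodes a reductase that acts on the double bond left by Cyp51, and it was at 7.5, 7.0 and 7.3 in hIAPP-Tg and 7.6, 7.6 and 7.5 in wild-type islets. The highest hIAPP-Tg array tied with the lowest wild-type array (difference -0.30, SE 0.13, limma adjusted p = 0.632). It was -0.17 without hIAPP-Tg replicate 5 and -0.18 with the acinar marker mean as a covariate. Lbr, the lamin B receptor, which has the same reductase activity and is on the list of isoprenoid and neighbouring genes, was also lower, at 9.3, 9.2 and 9.5 in hIAPP-Tg and 9.5, 9.6 and 9.6 in wild-type islets (difference -0.23, limma adjusted p = 0.620).

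**Figure D2:**
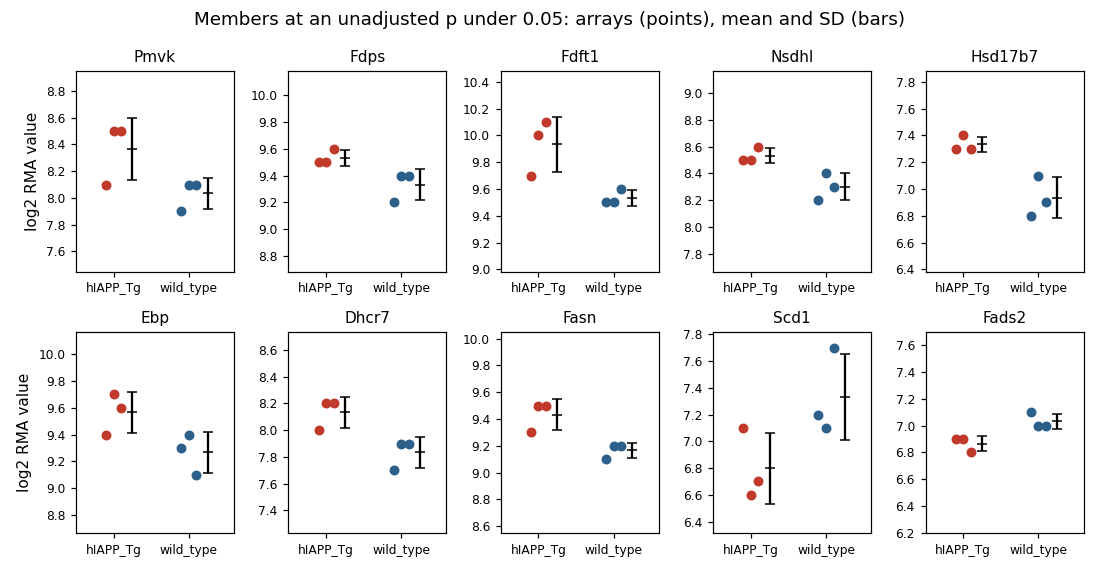
Log2 RMA values (y axis, 1.5 log2 units in each panel) of the 10 members at an unadjusted p under 0.05, with hIAPP-Tg arrays in red, wild-type arrays in blue and mean ± SD in black. Pmvk, Fdps, Fdft1, Nsdhl, Hsd17b7, Ebp, Dhcr7 and Fasn are higher in hIAPP-Tg islets, Scd1 and Fads2 lower.

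Much of the variation of the sterol enzymes lay between mice of a genotype. hIAPP-Tg replicate 6 was the highest or joint highest array for 12 of the 17 enzymes, and wild-type replicate 1 the lowest or joint lowest for 13. hIAPP-Tg replicate 4 was the highest for 1 and the joint lowest, with wild-type replicate 1, for 4. The pooled SD within genotypes was 0.47 for Hmgcs1, 0.46 for Idi1 and 0.39 for Cyp51, against a median of 0.18 over the 17 enzymes and 0.12 over all named genes. Insig1, a regulator that SREBPs also switch on, had 0.27. Among the 5 enzymes without overlap it ran from 0.082 for Nsdhl to 0.15 for Fdft1.

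**Figure D3:**
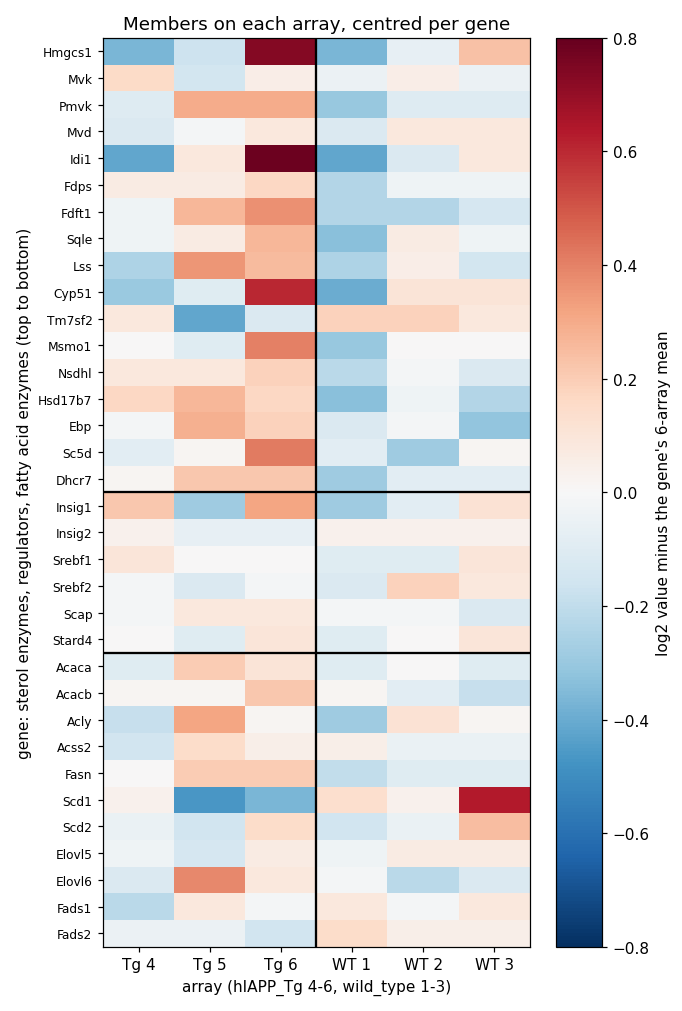
Log2 value of each gene on each array minus the gene's mean over the 6 arrays (colour), with hIAPP-Tg arrays in the left 3 columns and wild-type arrays in the right 3, and sterol enzymes, regulators and fatty acid enzymes from top to bottom. The column of hIAPP-Tg replicate 6 is darkest red at Idi1 and Hmgcs1, and wild-type replicate 1 is blue for most sterol enzymes.

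The regulators did not separate the genotypes. Insig1, which holds the SREBP escort back, was at 10.4, 9.9 and 10.5 in hIAPP-Tg and 9.9, 10.1 and 10.3 in wild-type islets (difference 0.17, limma adjusted p = 0.818). Srebf2, the SREBP mainly of sterol genes, was at 7.5, 7.4 and 7.5 in hIAPP-Tg and 7.4, 7.7 and 7.6 in wild-type islets (difference -0.10, limma adjusted p = 0.791). The second probe set of Srebf2, also above the array median, differed by 0.20 with overlap. Srebf1, the SREBP mainly of fatty acid genes, was at 9.7, 9.6 and 9.6 in hIAPP-Tg and 9.5, 9.5 and 9.7 in wild-type islets, a difference of 0.067. For all 3 genes the genotypes overlapped, with 95% intervals of -0.27 to 0.61 for Insig1, -0.32 to 0.12 for Srebf2 and -0.12 to 0.26 for Srebf1. Scap, the escort, was at 9.2, 9.3 and 9.3 in hIAPP-Tg and 9.2, 9.2 and 9.1 in wild-type islets (difference 0.10). Insig2 differed by -0.067 and Stard4, a sterol carrier between membranes, by 0. SREBP activity depends on protein cleavage and was not measured on these arrays.

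Among the 5 enzymes from acetyl-CoA supply to palmitate, all lay above 0 by their brightest probe set and Fasn separated the genotypes. Over all named genes 48% lay above 0 (53.4% of those above the array median). Without overlap were 4.49% of all named genes with hIAPP-Tg on top and 3.22% with wild type on top. Fasn, the fatty acid synthase, was at 9.3, 9.5 and 9.5 in hIAPP-Tg and 9.1, 9.2 and 9.2 in wild-type islets. The genotypes did not overlap, and the difference was 0.27 (1.20-fold, SE 0.078, limma adjusted p = 0.552). Acly, which makes cytosolic acetyl-CoA from citrate and is the brightest of these probe sets, was at 12.6, 13.1 and 12.8 in hIAPP-Tg and 12.5, 12.9 and 12.8 in wild-type islets (difference 0.10). The acetyl-CoA carboxylase genes Acaca and Acacb differed by 0.13 and 0.17. Acacb was the dimmest, at 5.4, 5.4 and 5.6 in hIAPP-Tg and 5.4, 5.3 and 5.2 in wild-type islets, under the array median of 5.7 and not known to be above background. The second probe set of Acacb, also dim, differed by -0.17, and the gene by 0 with both averaged. Acss2, which makes acetyl-CoA from acetate, differed by 0.033. Without hIAPP-Tg replicate 5, Acly and Acss2 each differed by -0.033.

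The desaturases lay on the other side of 0, as did 40.5% of all named genes and 36.2% of those above the array median. Scd1, a stearoyl-CoA desaturase that puts the first double bond into saturated fatty acids, was at 7.1, 6.6 and 6.7 in hIAPP-Tg and 7.2, 7.1 and 7.7 in wild-type islets. It had the largest difference of all members, -0.53 (0.691-fold, SE 0.20, limma adjusted p = 0.620), with a tie at 7.1. Without wild-type replicate 3 the difference was -0.35. Scd2, the paralog of Scd1, was much brighter on its own probe set, at 11.4, 11.3 and 11.6 in hIAPP-Tg and 11.3, 11.4 and 11.7 in wild-type islets, and differed by -0.033. Fads2, the first desaturase of polyunsaturated fatty acids, was at 6.9, 6.9 and 6.8 in hIAPP-Tg and 7.1, 7.0 and 7.0 in wild-type islets, without overlap (difference -0.17, SE 0.063, limma adjusted p = 0.620). Fads1, which acts after Fads2, differed by -0.10 with overlap. Without hIAPP-Tg replicate 6 or wild-type replicate 1, 0 desaturases had an unadjusted p under 0.05, and without hIAPP-Tg replicate 5 or wild-type replicate 3 only Fads2 of the 4 had. Fasn kept an unadjusted p under 0.05 with each array left out in turn, as did Fdft1 and Hsd17b7 of the sterol enzymes.

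Both elongases of this list overlapped between genotypes. Elovl6, which extends palmitate, was at 8.5, 9.0 and 8.7 in hIAPP-Tg and 8.6, 8.4 and 8.5 in wild-type islets (difference 0.23, limma adjusted p = 0.711), with hIAPP-Tg replicate 5 on top. The difference was 0.10 without that array and 0.070 with the acinar marker mean as a covariate. Elovl5, which extends polyunsaturated fatty acids, differed by -0.067.

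Sterol and fatty acid arms were set side by side as per-array means over their genes, each gene centred on its own mean. The sterol mean was -0.068, 0.062 and 0.30 on hIAPP-Tg arrays and -0.23, -0.026 and -0.038 on wild-type arrays. hIAPP-Tg replicate 4 lay below 2 of the wild-type arrays, so the genotypes overlapped, and the difference was 0.19 with a pooled SD within genotypes of 0.15. It was 0.094 without hIAPP-Tg replicate 6 and 0.13 without wild-type replicate 1. The fatty acid mean was -0.077, 0.050 and 0.032 on hIAPP-Tg arrays and -0.032, -0.023 and 0.050 on wild-type arrays, a difference of 0.0030. Subtracting the fatty acid from the sterol mean gave 0.0096, 0.012 and 0.27 on hIAPP-Tg arrays and -0.19, -0.0037 and -0.088 on wild-type arrays. These did not overlap, but the gap between hIAPP-Tg replicate 4 and wild-type replicate 2 was far smaller than the rounding step of 0.1 of a single value, and the difference of 0.19 was 0.11 without hIAPP-Tg replicate 6. No p is given for these means, since the genes were chosen with earlier results of these data known.

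Within the fatty acid arm, the means of its subgroups lay on opposite sides of 0. This split was not among the planned means. All genes from acetyl-CoA to palmitate lay above 0 and all desaturases below it, so these means repeat the genes' own directions. The 5 genes from acetyl-CoA to palmitate include Acacb, which lay under the array median. They averaged -0.083, 0.18 and 0.12 on hIAPP-Tg and -0.10, -0.023 and -0.083 on wild-type arrays, a difference of 0.14 with overlap. Without hIAPP-Tg replicate 5 it was 0.087, and without hIAPP-Tg replicate 4 it was 0.22. The 4 desaturases averaged -0.071, -0.15 and -0.096 on hIAPP-Tg and 0.054, 0.0042 and 0.25 on wild-type arrays, a difference of -0.21 without overlap. It was -0.13 without wild-type replicate 3 and -0.10 without Scd1. These alternatives, and those for the 5 genes above, were chosen after the data were seen. Division of the sterol arm at squalene gave 0.20 for the 7 genes before it and 0.19 for the 10 after it. The median difference was 0.23 over the sterol enzymes, 0.033 over the regulators and 0.033 over the fatty acid enzymes, against 0 over all named genes and 0.033 over those above the array median.

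**Figure D4:**
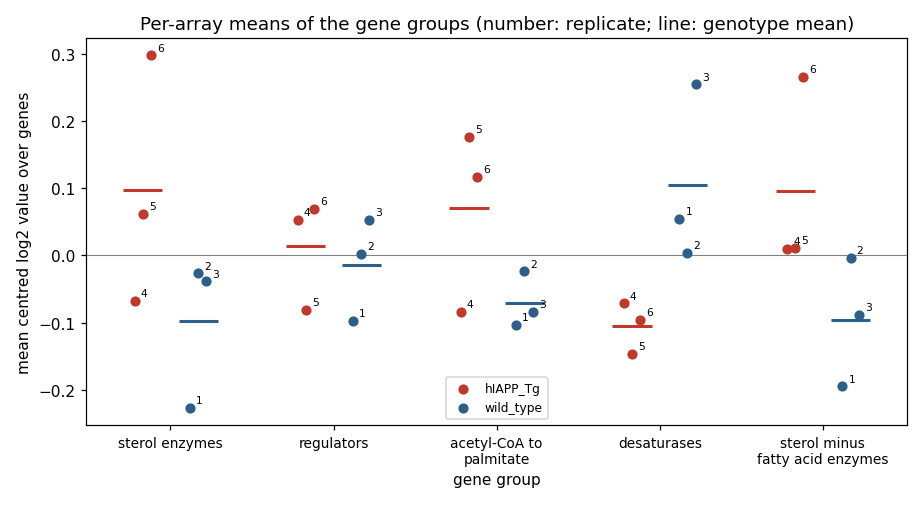
Mean centred log2 value (y axis) over the 17 sterol enzymes, 6 regulators, 5 genes from acetyl-CoA to palmitate and 4 desaturases, and the sterol minus fatty acid mean, for each hIAPP-Tg (red) and wild-type (blue) array, with replicate numbers and genotype means as lines. hIAPP-Tg replicate 6 is highest for the sterol enzymes at 0.30, and the desaturases of the hIAPP-Tg arrays all lie under those of wild-type arrays.

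Several genes had probe sets that disagreed. Of the 79 probe sets, 61 lay above the array median of 5.7. All 5 of Hmgcs1 lay above 0 (0.13 to 0.27), as did all 3 of Cyp51 (0.13 to 0.27), both of Idi1 and all 3 of Elovl6 (0.067 to 0.47). All 3 of Scd2 lay below 0 (-0.23 to -0.033), as did all 3 of Fads2 (-0.20 to -0.10, with 2 at an unadjusted p under 0.05), both of Fads1 and both of Scd1, where the second is near the floor of the scale. Fdft1 had 2 bright probe sets higher at this level, by 0.40 and 0.27, and 2 dimmer ones at -0.067. The call on Hsd17b7 rested on 1 of its 4 probe sets. The others differed by -0.067, 0.10 and -0.13, and the gene by 0.075 with all averaged. With averaged probe sets, 5 sterol enzymes were higher at this level, without Fdft1 and Hsd17b7, beside 4.88% of all named genes. For Sc5d the brightest differed by 0.23 and the second by -0.30, which gave -0.033 on average. The brightest probe sets of Hmgcs1, Fdft1, Hsd17b7 and Elovl5 are of the array's type whose probes may also match other sequences. Among the regulators, the dimmest of 3 Stard4 probe sets was higher by 0.27 at an unadjusted p under 0.05, below the array median.

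**Figure D5:**
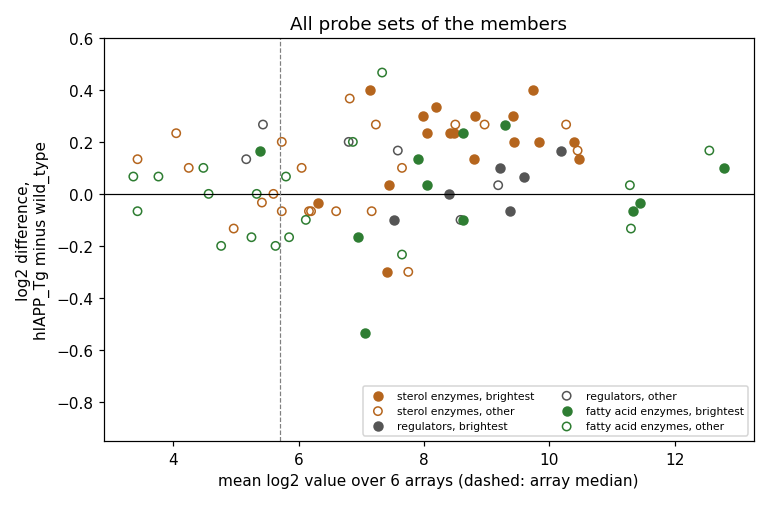
Log2 difference (hIAPP-Tg minus wild type, y axis) against the mean log2 value over 6 arrays (x axis) for all 79 probe sets of the members, filled for the brightest of each gene and open for the others. Differences run from -0.53 (Scd1) to 0.47 (a second probe set of Elovl6), and open sterol probe sets near or under the dashed array median scatter around 0.

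Other genes of lipid metabolism were taken from lists that held no member, and their counts stand beside the 5.02% of all named genes that were higher and the 3.45% that were lower (6.56% and 3.48% above the array median). Of 15 measured genes of cholesterol uptake, transport and storage, 4 were higher and 0 lower at an unadjusted p under 0.05, with a median difference of 0.10. The lysosomal acid lipase gene Lipa, which frees cholesterol from esters, was at 8.2, 8.2 and 8.2 in hIAPP-Tg and 7.7, 7.7 and 7.6 in wild-type islets, without overlap (difference 0.53, limma adjusted p = 0.0924). Over its 3 probe sets the differences ran from 0.10 to 0.53, and 1 had an unadjusted p under 0.05. Npc2, which hands lysosomal cholesterol on, differed by 0.30, Lrp1, a lipoprotein receptor, by 0.27 and Scarb1, the receptor of high-density lipoprotein, by 0.20. Over all its probe sets, Npc2 ran from 0.033 to 0.30, Scarb1 from 0.17 to 0.37 and Lrp1 from -0.13 to 0.27. Macrophages also express several of these genes, and 14 of the 18 macrophage markers were higher at this level. Their part in these differences was not tested.

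Of 8 further genes of SREBP and carbohydrate-responsive control, 0 were higher or lower at an unadjusted p under 0.05. The largest difference was that of Mlxipl, a glucose-responsive transcription factor of lipid synthesis, at 10.1, 10.6 and 10.7 in hIAPP-Tg and 11.0, 10.7 and 10.7 in wild-type islets (-0.33). Of 11 isoprenoid and neighbouring genes, 0 were higher and 1 was lower, namely Lbr, which shares the reductase activity of Tm7sf2. Of 19 further genes of fatty acid supply, elongation and desaturation, Elovl1 was higher by 0.20 and Elovl4 lower (-0.37), both elongases of very long fatty acids, and Elovl4 lay near the array median. Of 15 genes of glycerolipid synthesis, 2 were higher, Lpin2 (0.33) and Acsl4 (0.20), and 1 was lower, Dgat2 (-0.17), whose second probe set differed by 0.17. Over all its probe sets, Lpin2 ran from -0.10 to 0.33 and Acsl4 from 0.033 to 0.20. Of 15 genes of fatty acid oxidation, 2 were higher and 0 lower, the acyl-CoA dehydrogenase gene Acadvl and the electron carrier gene Etfb, each by 0.23. None of these genes passed over all probe sets.

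Markers of other cells also varied between arrays, and their association with the members was not tested. Acinar markers were all below 0 in hIAPP-Tg islets, at 15 of 15, with a median difference of -1.03 and none at an unadjusted p under 0.05. Their mean was lowest on hIAPP-Tg replicate 5 at 9.43. That array was highest or joint highest for 5 of 17 sterol enzymes, 1 of 6 regulators and 6 of 11 fatty acid enzymes, among them Elovl6. It was lowest or joint lowest for 2, 4 and 3 of them, among these Scd1. With the acinar mean as a covariate, 5 sterol enzymes were higher, beside 4.37% of all named genes, and the sterol mean differed by 0.21. Pmvk (0.28), Ebp (0.20) and Scd1 (-0.34) no longer had an unadjusted p under 0.05 there. Of 8 fat cell markers, Adipoq and Cidec were near the floor, at 3.87 and 3.87 in hIAPP-Tg and 3.80 and 3.87 in wild-type islets. Fabp4 was at a mean of 9.43 in hIAPP-Tg and 9.60 in wild-type islets, and Retn and Lpl also lay above the array median. The mean over the 8 was 6.08 to 6.18 in hIAPP-Tg and 6.15 to 6.25 in wild-type islets, and Lpl, lipoprotein lipase, was lower (-0.67). The mean over 18 macrophage markers did not overlap between genotypes, as given above, so the part of macrophages in the sterol values was not tested. Of 10 endothelial markers, 4 were lower and 0 higher at this level, with a mean of 7.87 to 7.99 in hIAPP-Tg and 8.03 to 8.15 in wild-type islets. Of 6 markers of other endocrine cells, 2 were lower (Irx2 and Hhex) and 0 higher, with a mean of 12.03 to 12.13 in hIAPP-Tg and 12.18 to 12.23 in wild-type islets. Neither mean overlapped between genotypes, and the part of these cells in the members' values was not tested. Among the 8 beta-cell markers 0 were higher or lower at this level, and their median difference was -0.10. Of 10 stroma markers, 2 were higher and 1 lower, and of 8 duct markers, 2 and 0. Over all named genes these shares were 5.02% and 3.45%. The stroma mean was 8.17 to 8.37 on hIAPP-Tg arrays. On wild-type replicate 1, the lowest or joint lowest array for 13 sterol enzymes, it was 8.84. The other wild-type arrays were at 8.05 and 8.06. The duct mean was 7.84 to 7.98 in hIAPP-Tg and 7.79 to 7.86 in wild-type islets. The part of stroma and duct cells was not tested.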

How the data were processed

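Expression of islet RNA was measured on 6 Affymetrix arrays from 150 ng of total RNA each, as biotin-labelled cRNA. The authors deposited log2 expression values for 45101 probe sets, and RMA and affy are named in the submitters' processing notes, without a version known here. The median was 5.7 on each array, though the values of the arrays were not equal in distribution. Values near the floor and the top of the scale can understate differences. Precision is limited by having 6 arrays.

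The 64 control probe sets were left out. Gene names came from the platform annotation, updated by Entrez number through a RefSeq gene table of GRCm38.p6, which changed 0 symbols: 34945 probe sets had 1 symbol, 932 several and 9160 none here. Two-sided tests on genotype alone came from lmFit and eBayes of limma 3.58.1, run in R 4.3.3. P-values were adjusted by Benjamini-Hochberg over 45037 probe sets, and the fit was tested on simulated data. Figures used matplotlib 3.10.9. The members and lists were chosen with earlier results of these data known. Values on every array are given for members at an unadjusted p under 0.05 or without overlap, the 3 largest differences, and the brightest and dimmest of each group. Others named from the pathway lists had an unadjusted p under 0.05 or were among the 2 largest differences. Ins2, Gcg, Adipoq, Cidec and Retn fall outside this rule and were chosen after their values were seen. The p-values measure the spread between these mice's arrays, and nothing says whether islets were isolated on separate days. Some list genes, such as Soat1 and Ins1, and some genes of these pathways are not analysed here.

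Alternatives were quantile normalization, median centring, a filter on dim probe sets, a trended and a robust prior, array weights, no moderation, averaged probe sets, the acinar mean as covariate, leaving out each array, and for the group means the median over genes and the sterol regulators added.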

Additional observations from a re-analysis of the deposited data

How the results depend on the processing

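No paired analysis was possible because the genotypes share no replicate numbers. No member passed an adjusted p of 0.05 under any alternative run. The 10 members at an unadjusted p under 0.05 kept their direction in the 10 settings that can move a difference. The other 5 settings leave every difference as it was. For these members the genotypes did not overlap or only tied, so leaving out an array could not change the sign. They were also picked by their p on these same arrays, so the kept direction is no separate support. With 3 mice a genotype and values in steps of 0.1, the order of close values is uncertain. The cause of the changes below was not tested.

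Probe sets past the threshold, 13 as reported, were 30 with quantile normalization, 51 with the robust prior, 26 with array weights, 1 without moderation, 3 with the acinar covariate and 1 to 4 with an array left out. Member probe sets at an unadjusted p under 0.05 were 6 higher and 1 lower without moderation, and 1 lower with the acinar covariate. With an array left out, 4 to 12 were higher and 0 to 4 lower. The share over all probe sets is not given for these settings, and shares over named genes follow. Sterol enzymes higher at this level, 7 as reported, were 4 without moderation and 2 to 7 with an array left out. Of the named genes tested there, 4.12% were higher and 2.75% lower without moderation. With an array left out, 3.91% to 7.13% were higher and 3.06% to 4.6% lower. Tm7sf2 became 1 lower with the robust prior and with averaged probe sets, and 0 to 1 were lower with an array left out. Fatty acid enzymes lower, 2 as reported, were 1 with the trended prior, the robust prior, no moderation or the acinar covariate, and 0 to 2 with an array left out. Of the named genes, 3.36% were lower with the trended prior and 3.47% with the robust prior. With averaged probe sets 3.56% were lower, and with the acinar covariate 2.55%. Fatty acid enzymes higher, 1 as reported, were 2 with array weights and 1 to 3 with an array left out. With array weights 7.91% of the named genes were higher. Of the regulators, 1 was higher with the acinar covariate (Insig1), and 0 to 1 were lower with an array left out. With that covariate 4.37% of the named genes were higher.

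Some members changed sign: with averaged probe sets Mvk (-0.017), Sc5d (-0.033, against 0.23 as reported) and Srebf2 (0.050), and with the acinar covariate Acss2 (-0.066) and Scd2 (0.069). With an array left out, values ran from -0.20 to 0.35 for Hmgcs1, -0.017 to 0.58 for Idi1, -0.13 to 0.32 for Cyp51, -0.033 to 0.12 for Mvk, -0.10 to 0.017 for Mvd, -0.033 to 0.22 for Acly, -0.033 to 0.12 for Acss2 and -0.12 to 0.083 for Scd2. The sterol minus fatty acid difference was 0.14 to 0.23 over the other settings and 0.11 to 0.24 with an array left out, and the sterol difference 0.094 to 0.28. The means of the regulators and of the fatty acid enzymes changed sign in several settings, at -0.014 to 0.075 and -0.021 to 0.042 with an array left out.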
